A study of Oncorhynchus mykiss with 24 samples.

Results

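Copies of 5 genes of the mesendoderm were followed in a trout hybrid: foxh1, noto, tbx16, gata6 and snai1b. The members are all entries of the deposited count table whose own identifier is 1 of these symbols, or whose numbered identifier carries 1 of them as zebrafish ortholog in the authors' ortholog table. This gave 19 of the 32765 entries, 9 of 22773 for the maternal species Oncorhynchus mykiss (rainbow trout) and 10 of 9992 for the paternal species Salvelinus fontinalis (brook trout). Salmonids carry duplicated genomes, so most symbols have several entries, here called copies. O. mykiss has 1 copy of noto, 3 of tbx16, 2 of gata6, 2 of foxh1 and 1 of snai1b, and S. fontinalis has 1, 4, 2, 2 and 1.

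The study used O. mykiss eggs and S. fontinalis sperm, a cross that all groups share. RNA of the animal side, where the cells form (section A), was sequenced apart from RNA of the yolk-rich vegetal side (section B). Samples were taken at 0 and 1 hours (hpf) and at 1 and 3 days (dpf) after fertilization, with an early blastula of 32 to 64 cells at 1 dpf and a mid-blastula of about 1000 cells at 3 dpf. The labels call the 0 hpf samples both non-fertilized and freshly fertilized eggs, and the 1 hpf samples both 1-cell and early cleavage embryos. Each section had 2 libraries at 0 hpf and at 3 dpf and 3 libraries at 1 hpf and at 1 dpf, 20 in all, and the other 4 labelled libraries were not analysed here. The labels state biological replicates but not whether a replicate was 1 egg or a pool, nor the eggs' mothers or fathers.

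In vertebrate embryos Nodal ligands bind activin receptors, which activate Smad proteins, and Foxh1 brings these Smads to the DNA of mesoderm and endoderm genes. In zebrafish, noto is needed for the notochord, tbx16 (spadetail) for trunk mesoderm, gata6 is a zinc-finger factor of endoderm and heart, and snai1b is a Snail repressor of epithelial genes that acts in cell movement. Foxh1 RNA is known as a maternal store of the zebrafish egg.

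Library totals ran from 5011274 to 9986001 counts. S. fontinalis entries held 24.0% and 22.5% of the counts in the 2 section A libraries of 3 dpf and 0.927% to 1.08% in the other 18. RNAs known from the vegetal cortex of fish eggs (12 O. mykiss entries of 6 genes) had summed levels of 637 to 1200 CPM in the libraries of the animal side and of 3035 to 8358 CPM in those of the vegetal side, which do not overlap. Enveloping layer markers krt5 and cldne were at 0 in section A before 3 dpf and summed to 47.8 and 65.0 CPM in its 3 dpf libraries (2 of 4 symbols matched). Every entry of the deposited table reaches at least 31 counts in some library. These 2 entries do so only in section A of 3 dpf, so their appearance there is a description. DESeq2 called 0 of the 2 higher than at 1 dpf. Of the 6 follicle cell and the 6 blood symbols 0 matched an entry, and of 6 sperm symbols 1 did, ropn1l, at 5.25 to 16.1 CPM. Of the 32765 entries 11668 carry no symbol, so a symbol without a match does not show that its RNA was absent. The part of other cell types in the results was not tested. CPM is the count scaled to a common library total with edgeR's trimmed mean factors (TMM). Transcript lengths were not used, so levels are compared between samples and not between genes. In bulk RNA, fewer cells of a type and less RNA per cell cannot be told apart.

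**Figure D1:**
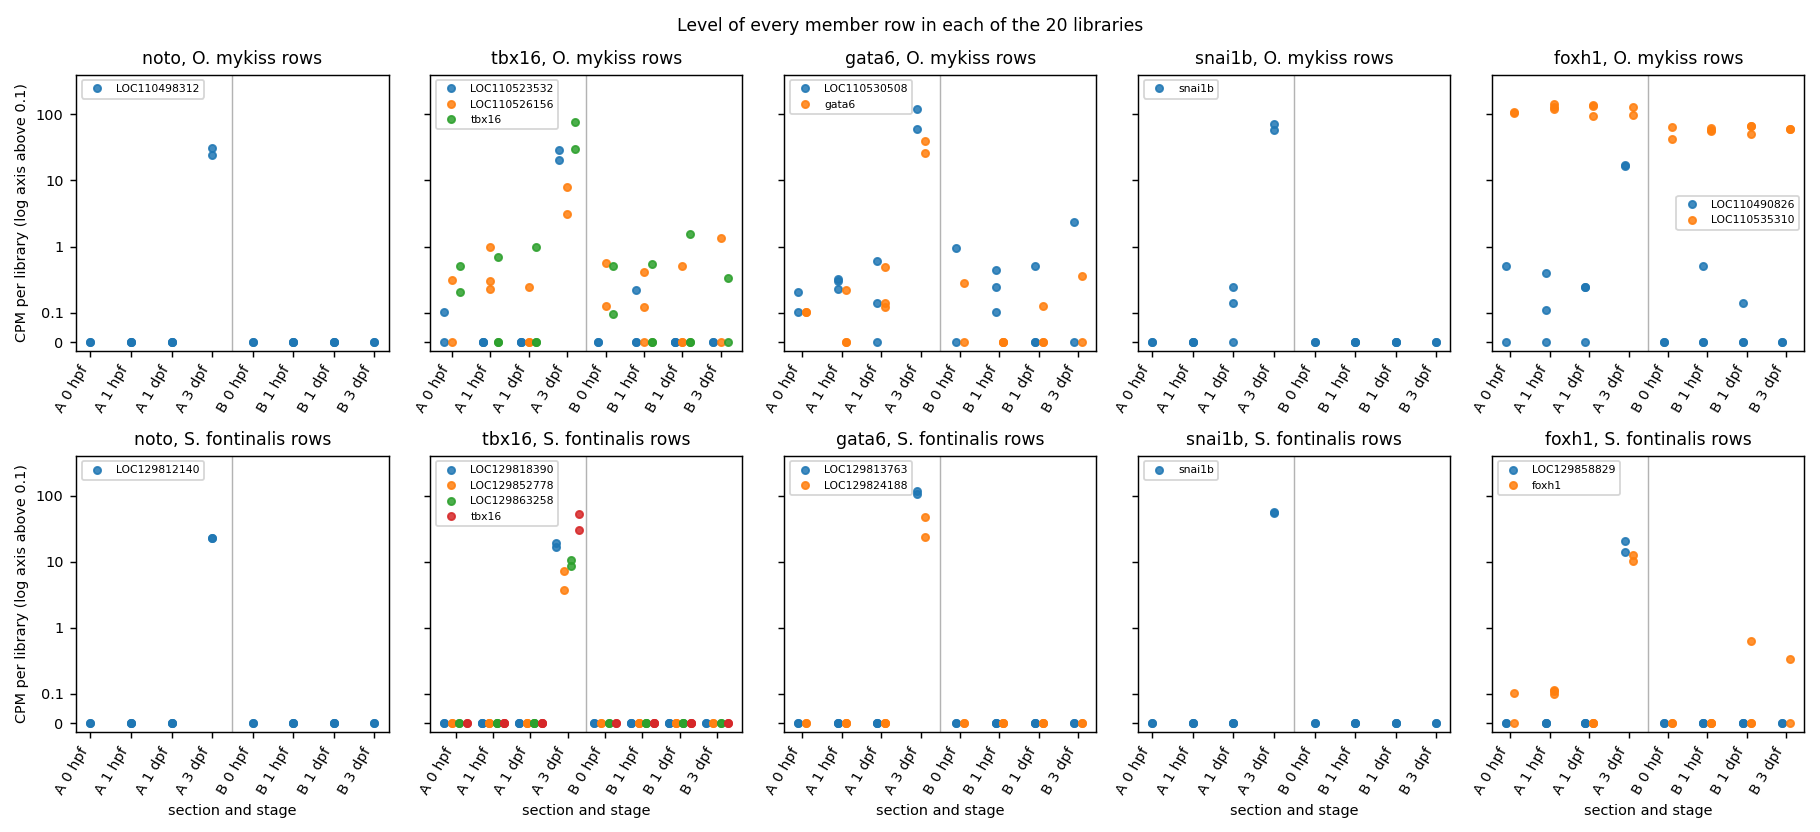
Level of each of the 19 copies in each of the 20 libraries (y axis, CPM, logarithmic above 0.1), by section and stage (x axis), with O. mykiss copies in the upper panels, S. fontinalis copies in the lower ones and 1 point per library. All copies except foxh1 LOC110535310 are at or near 0 until they appear in section A at 3 dpf.

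The first comparison asked when each gene appears, by setting section A at 3 dpf against section A at 1 dpf. Of the 19 copies 18 rose and none fell, 8 of 9 in O. mykiss and 10 of 10 in S. fontinalis (edgeR quasi-likelihood test, Benjamini-Hochberg adjusted over all 32502 entries tested, highest adjusted p of a call 0.00474). Over all entries tested, 34.9% rose, but the species differed: 11.7% of O. mykiss entries and 88.9% of S. fontinalis entries, while 23.2% and 0.245% fell. Every entry of the deposited table, of either species, reaches at least 31 counts in some library. Each of these 18 copies had at most 13 counts in any library other than those of section A at 3 dpf, so it is in the table only through the group in which it is high. Its rise was fixed by that limit, and nothing is read from these counts against the background. For the same reason the adjusted p-values given below for rises of these 18 copies are a description. With DESeq2's Wald test 9 of the 19 copies were called higher, where it called 30.2% of all entries. That share pools both species and is not given for each, so nothing is read from the 9 against it. Besides foxh1 LOC110535310, DESeq2 left uncalled noto of O. mykiss and 8 S. fontinalis copies, all at 0 counts in every other library (adjusted p of the O. mykiss copy 0.157, and 0.0824 to 0.273 for the others). The S. fontinalis copies that DESeq2 called were foxh1 and snai1b. In edgeR the 1 copy that did not pass was foxh1 LOC110535310 of O. mykiss. Against 0 hpf the same 18 of 19 copies were higher at 3 dpf, where 10% of O. mykiss and 87.2% of S. fontinalis entries rose. DESeq2 called 9 there, against 28.6% of all entries, again with both species pooled. Both comparisons share the 3 dpf libraries. Between 0 hpf and 1 dpf edgeR called 0 of 19 copies in section A, as it called 0.0% of all entries, and 0 copies had an unadjusted p under 0.05. For 10 of the 19 copies the counts were 0 at both stages, so no call was possible there. DESeq2 also called 0 of the copies there.

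foxh1, the DNA-binding partner of the Smads, had copies of different pattern. LOC110535310 of O. mykiss was abundant from the egg on. In section A it had 1015 and 1057 counts at 0 hpf, 1320, 1175 and 1138 at 1 hpf, 985, 1093 and 769 at 1 dpf, and 684 and 460 at 3 dpf. In section B it had 337 and 681 counts at 0 hpf, 455, 562 and 572 at 1 hpf, 349, 526 and 349 at 1 dpf, and 327 and 361 at 3 dpf. At each stage every animal library stood above every vegetal one, with 95.1 to 145 CPM against 42.3 to 67.5 CPM.

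The section A means of LOC110535310 were, from high to low, 131 CPM at 1 hpf (SD 13.1, n = 3), 122.5 at 1 dpf (SD 23.8, n = 3), 112 at 3 dpf (SD 21.5, n = 2) and 106 at 0 hpf (SD 3.40, n = 2). The section B means were 61.0 at 1 dpf (SD 9.84, n = 3), 59.9 at 3 dpf (SD 0.387, n = 2), 58.5 at 1 hpf (SD 2.87, n = 3) and 53.6 at 0 hpf (SD 15.9, n = 2). Within a section, libraries of neighbouring stages in these orders overlapped. From 1 dpf to 3 dpf in section A the log2 difference was −0.13 ± 0.20 (SE, edgeR adjusted p = 0.63), and its sign depended on the scaling, being 0.16 with DESeq2's size factors and 0.19 with factors from O. mykiss entries alone. The median log2 change of all O. mykiss entries in this comparison was −0.33.

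This copy of foxh1 was the 1 member with a section difference called before 3 dpf. At each of those stages 11 of the 19 copies were at 0 counts in both sections, and the remaining ones except this copy had few counts. Their missing calls say nothing about their side. foxh1 LOC110535310 was higher in section A than in section B by a log2 fold change of 0.98 ± 0.23 at 0 hpf (SE, edgeR adjusted p = 0.015), 1.16 ± 0.18 at 1 hpf (adjusted p = 0.000182), 1.01 ± 0.18 at 1 dpf (adjusted p = 0.000606) and 0.90 ± 0.23 at 3 dpf (adjusted p = 0.00297). At those first 3 stages 1 of the 19 copies was called each time, where 1.45%, 12.5% and 14.3% of O. mykiss entries and 0.0716%, 2.11% and 3.2% of S. fontinalis entries were called higher in section A. The 0 hpf call was lost without 3 of the 4 libraries compared: its adjusted p was 0.122 without section A replicate 1, 0.0973 without section A replicate 2 and 0.415 without section B replicate 1, and it was 0.00706 without section B replicate 2. The difference itself did not pass a test of change between 1 dpf and 3 dpf (log2 change −0.10 ± 0.29, SE, edgeR adjusted p = 0.96).

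The other O. mykiss copy of foxh1, LOC110490826, had 0 to 5 counts in each of the 18 other libraries, 20 in all, and 91 and 78 in section A at 3 dpf. Its level rose from 0.164 CPM at 1 dpf to 16.6 at 3 dpf, a log2 fold change of 6.50 ± 1.36 (SE, edgeR adjusted p = 0.000885). It made up 11.7% and 14.5% of the counts of both O. mykiss copies in those 3 dpf libraries, and at most 0.867% in any other library. The S. fontinalis copies rose at the same stage. LOC129858829 went from 0 counts in all 18 other libraries to 112 and 66, at least 44.8-fold higher than at 1 dpf (adjusted p = 0.000601). S. fontinalis foxh1 had 56 and 61 counts at 3 dpf after 11 counts spread over 6 of the other 18 libraries, none of them in section A at 1 dpf, against which it was at least 30-fold higher (adjusted p = 0.000346).

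**Figure D2:**
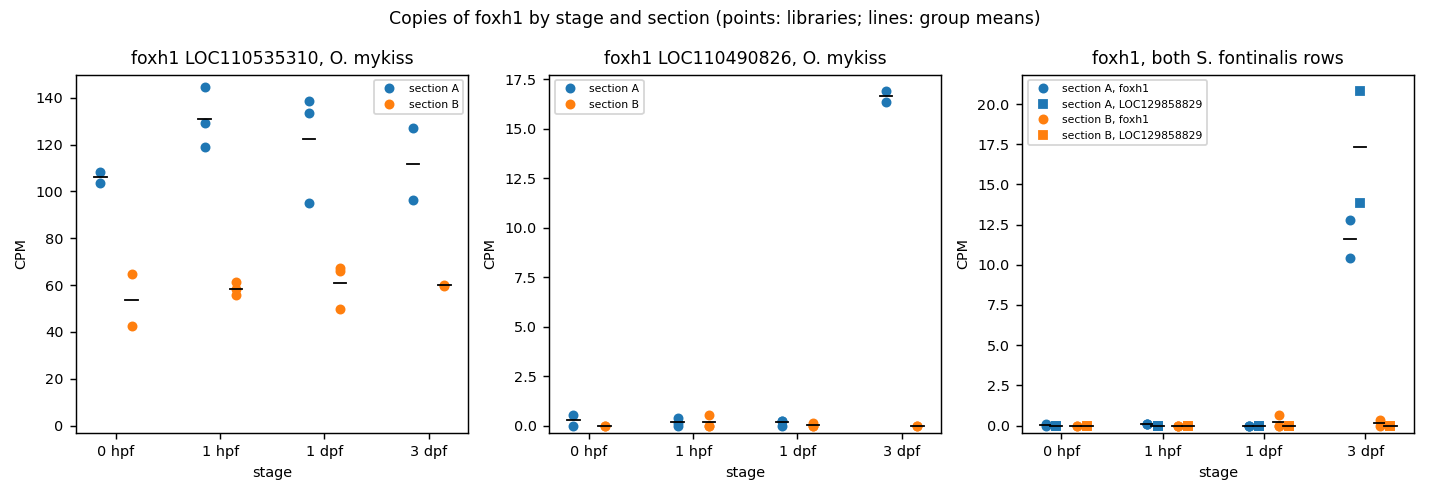
CPM of the foxh1 copies (y axis, linear) by stage (x axis) and section (colour), 1 point per library and a black line at each group mean, with a separate scale in each panel. LOC110535310 stays between 95.1 and 145 CPM on the animal side and between 42.3 and 67.5 CPM on the vegetal side, while LOC110490826 and both S. fontinalis copies stand up only in section A at 3 dpf.

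noto, the homeobox gene of the notochord, was at 0 outside the animal side of 3 dpf in both species. Its O. mykiss copy LOC110498312 had 0 counts in all 18 other libraries and 131 and 149 counts in section A at 3 dpf (24.3 and 31.3 CPM). That was at least 71.9-fold higher than at 1 dpf with each empty library set to a floor of 3 counts (edgeR adjusted p = 0.000215). Of all O. mykiss entries 0.193% were at 0 in those 18 libraries, and noto was the 1 of 9 O. mykiss copies among them. The S. fontinalis copy LOC129812140 had 121 and 109 counts at 3 dpf (22.5 and 22.9 CPM) and 0 elsewhere, at least 58.6-fold higher than at 1 dpf (adjusted p = 0.000325). Of the S. fontinalis copies 9 of 10 were at 0 in the other 18 libraries, against 15.2% of all S. fontinalis entries. Copies that are in the table only through section A of 3 dpf are low elsewhere by that choice, so these counts of copies are a description. A count of 0 in a library allows up to 3 counts, so these levels were not detectable at this depth, and intervals and floors cover counting error only.

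tbx16, a T-box gene of trunk mesoderm, had the most copies and the widest spread between the 3 dpf libraries. The O. mykiss copy named tbx16 had 160 and 364 counts in section A at 3 dpf (29.7 and 76.4 CPM), against 0, 0 and 8 at 1 dpf, a log2 fold change of 7.23 ± 1.38 (SE, edgeR adjusted p = 0.000349). LOC110523532 had 157 and 96 counts at 3 dpf and 0 in all 3 libraries of 1 dpf, at least 63.7-fold higher (adjusted p = 0.000129). LOC110526156 was the lowest-counted, with 17 and 38 counts at 3 dpf and 0, 2 and 0 at 1 dpf, a ratio of 68.3 (95% counting interval 16.7 to 536, adjusted p = 0.00474).

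Low counts of tbx16 were present in the egg. The copy named tbx16 had 2 and 5 counts on the animal side and 4 and 1 on the vegetal side at 0 hpf, and 42 in all outside section A of 3 dpf. LOC110526156 had 43 counts over 11 of those 18 libraries, with 9 in section A at 1 hpf replicate 1, and LOC110523532 had 3 over 2 of them. All were at most 1.55 CPM, far under the 3 dpf levels of the copy named tbx16. LOC110526156 stood less far apart, with 0.987 CPM in section A at 1 hpf replicate 1 against 3.16 and 7.97 CPM in section A at 3 dpf. Section B of 3 dpf replicate 2 had 8 counts of LOC110526156 (1.33 CPM). The S. fontinalis copies were at 0 in all 18 other libraries. At 3 dpf they had 161 and 248 (tbx16), 89 and 91 (LOC129818390), 46 and 51 (LOC129863258), and 20 and 35 counts (LOC129852778). Their bounds against 1 dpf ran from at least 14.3-fold for LOC129852778 to at least 106-fold for the copy named tbx16.

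gata6, the zinc-finger factor of endoderm and heart, rose in all 4 of its copies. LOC110530508 of O. mykiss had 659 and 285 counts in section A at 3 dpf (122 and 59.8 CPM), against 1, 5 and 0 at 1 dpf, a log2 fold change of 8.39 ± 1.04 (SE, edgeR adjusted p = 6.73e-06). The copy named gata6 had 211 and 122 counts against 1, 1 and 4, a log2 fold change of 6.90 ± 0.95 (adjusted p = 3.03e-05). The S. fontinalis copies LOC129813763 (620 and 508 counts) and LOC129824188 (255 and 112) were at 0 in the other 18 libraries, at least 287-fold and at least 91.6-fold higher than at 1 dpf. Before 3 dpf, LOC110530508 had 0 to 5 counts per library except 10 in section B at 0 hpf replicate 2. It was also found in 1 of the 2 section B libraries of 3 dpf, with 13 counts in replicate 1 and 0 in replicate 2.

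snai1b, the Snail repressor, was not detectable in the egg at this depth and had its first counts at 1 dpf. The O. mykiss copy had 0 counts in all libraries of 0 hpf and 1 hpf, then 1, 2 and 0 in section A at 1 dpf and 309 and 337 at 3 dpf (57.4 and 70.7 CPM). From 1 dpf to 3 dpf the ratio was 499 (95% counting interval 169 to 2410), with an edgeR adjusted p of 1.51e-05. The difference of the 3 counts at 1 dpf from 0 hpf did not pass edgeR's test (unadjusted p = 0.0698, adjusted p = 0.782). The S. fontinalis copy had 296 and 270 counts at 3 dpf and 0 elsewhere, at least 144-fold higher than at 1 dpf (adjusted p = 4.25e-05). The 2 libraries of 3 dpf were close for this gene, 55.0 and 56.7 CPM in S. fontinalis.

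The second comparison asked on which side of the embryo the new RNA lay. At 3 dpf 18 of 19 copies were higher in section A than in section B, 8 of 9 in O. mykiss, where 15.2% of entries were higher, and 10 of 10 in S. fontinalis, where 86.3% were. For all of these but foxh1 LOC110535310 the limit of 31 counts was reached only in section A of 3 dpf, so the counts of copies are a description here too. The exception was tbx16 LOC110526156 (5.57 against 0.666 CPM, log2 fold change 3.01 ± 1.55, SE, edgeR adjusted p = 0.109). It rests on 8 counts in section B replicate 2: without that library the copy was called higher (adjusted p = 0.0372), as it was in a fit of only the groups compared (adjusted p = 0.0482). DESeq2 called 9 of 19, against 31.9% of all entries with both species pooled. Of the O. mykiss copies, noto, snai1b, tbx16 LOC110523532 and foxh1 LOC110490826 had 0 counts in both section B libraries, with bounds from at least 31.8-fold to at least 122-fold. gata6 LOC110530508 measured 91.1 CPM on the animal side against 1.18 on the vegetal side, a ratio of 76.9. In section B itself edgeR called 0 of 19 copies between 0 hpf and 3 dpf, and 0 had an unadjusted p under 0.05, where 0.123% of O. mykiss entries rose and 0.132% fell. For 13 of the 19 copies the counts were 0 at both stages, so no call was possible and the missing call says nothing about them. DESeq2 called 0 copies there too.

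Whether the section difference itself changed from 1 dpf to 3 dpf was tested as an interaction. It passed for 2 of 19 copies, S. fontinalis foxh1 (edgeR adjusted p = 0.00975) and O. mykiss tbx16 (log2 change 8.49 ± 2.45, SE, adjusted p = 0.0201), where 31.4% of S. fontinalis and 4.72% of O. mykiss entries passed upwards. For 12 copies at least 2 of the 4 groups were at 0, so a change on the log scale could not be evaluated, and the missing call says nothing about them. DESeq2 called 6 copies, among them S. fontinalis foxh1 but not O. mykiss tbx16. Its share over all entries is not given here for this test, so nothing is read from that number. S. fontinalis foxh1 and O. mykiss tbx16, like all copies except foxh1 LOC110535310, reached the limit of 31 counts only in section A of 3 dpf. Calls of the copies in this test are therefore a description. S. fontinalis foxh1 was also at 0 counts in section A at 1 dpf. Both calls of edgeR rested on single libraries. Without section B replicate 2 of 1 dpf, which held 5 counts, the adjusted p of S. fontinalis foxh1 was 1.00. For tbx16 it was 1.00 without section B replicate 1 of 1 dpf, which held 8 counts, 0.0674 without section B replicate 1 of 3 dpf and 0.0772 without section A replicate 2 of 3 dpf. gata6 LOC110530508 missed the threshold (5.90 ± 2.08, SE, adjusted p = 0.0521), and with the sample (stage and replicate number) as a block its adjusted p was 0.0072.

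The third comparison set the parental copies side by side in section A at 3 dpf. The share of a gene's counts that fell on its S. fontinalis copies was lowest for foxh1. Over all copies of a gene it was 45.1% ± 4.08 for noto, 46.7% ± 3.15 for snai1b, 47.3% ± 1.82 for tbx16, 55.3% ± 7.23 for gata6 and 18.5% ± 0.905 for foxh1 (mean ± SD, n = 2 libraries each). With 2 libraries no test of a share was made, and reads that match both genomes were assigned by a rule not given in the sources used here. Lengths of the copies were not used either. The tbx16 share includes S. fontinalis LOC129863258, whose O. mykiss partner has no entry, and this raises that share. Over the 4323 pairs with 1 copy in each species the median share was 26.4% (middle 50% of pairs from 15.7% to 39.1%). Among the 173 pairs whose O. mykiss copy was under 1 CPM in section A before 3 dpf the median was 50.7% (5th to 95th percentile 28.8% to 77.4%). Given the limit of 31 counts, a silent paternal copy would not be seen here.

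The pairs of foxh1 stood apart from each other. The pair of LOC110490826, low before 3 dpf, had an S. fontinalis share of 55.2% (95% exact binomial interval 48.1% to 62.1%) in replicate 1 and 45.8% (37.5% to 54.3%) in replicate 2. The pair of LOC110535310, abundant from the egg on, had 7.57% (5.77% to 9.72%) and 11.7% (9.08% to 14.8%). In the other 18 libraries the latter share was at most 0.942% (5 of 531 counts, section B of 1 dpf). The LOC110535310 pair lay between the 5th and the 25th percentile of all 4323 pairs, and the LOC110490826 pair lay within the range of the 173 low pairs.

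For some of the other pairs the shares of the 2 libraries differed beyond counting error. How many of all 4323 pairs do so was not counted, so this is not read as a trait of these genes. gata6 LOC110530508 had an S. fontinalis share of 48.5% (45.7% to 51.3%) in replicate 1 and 64.1% (60.6% to 67.4%) in replicate 2, intervals that do not overlap. The pair of the copy named gata6 moved the other way, from 54.7% to 47.9%, with overlapping intervals. The tbx16 pair had 50.2% (44.6% to 55.8%) and 40.5% (36.6% to 44.5%), which barely part. The tbx16 LOC110523532 pair had 36.2% and 48.7%, with overlapping intervals. noto had 48.0% and 42.3%, and snai1b 48.9% and 44.5%, again with overlapping intervals. Every pair except that of foxh1 LOC110535310 had a share from 36.2% to 64.1% in each library. The S. fontinalis tbx16 copy LOC129863258 (46 and 51 counts) has an O. mykiss partner in the ortholog table that has no entry in the count table used here. LOC129863258 counts in the share of the gene but in no pair.

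**Figure D3:**
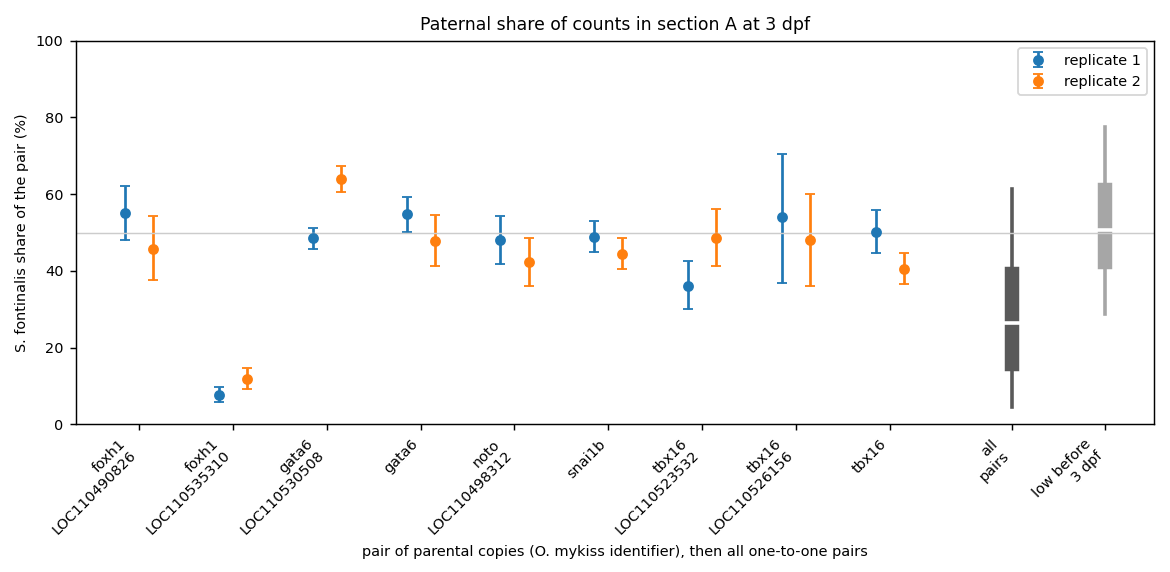
Share of the counts of each parental pair that fell on the S. fontinalis copy in section A at 3 dpf (y axis, percent), 1 point per library with its 95% exact binomial interval, and at the right, as bars, the 5th to 95th (thin) and 25th to 75th (thick) percentiles of all 4323 pairs and of the 173 pairs low before 3 dpf, with the median in white. The foxh1 LOC110535310 pair is at 7.57% and 11.7%, and the other 8 pairs are between 36.2% and 64.1%.

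Between the 2 embryonic libraries of section A at 3 dpf the copies differed, for most of them within the range of all entries. gata6 was higher in replicate 1 for each of its 4 copies, with CPM ratios of replicate 1 to replicate 2 of 2.05, 1.53, 1.08 and 2.01. tbx16 was lower in replicate 1 for 6 of its 7 copies, with ratios of 0.389 and 0.396 for O. mykiss tbx16 and LOC110526156 and 0.574 and 0.506 for their S. fontinalis partners, while LOC110523532 had 1.45. noto and snai1b were close in both libraries, with ratios from 0.778 to 0.982. Over all 25188 entries with at least 20 counts in both libraries, the 5th to 95th percentile of this ratio ran from 0.506 to 2.01. Of the copies, the ratios of 0.389, 0.396 and 2.05 lay outside this range, and all others lay within it or at its edge. Copies of a gene in 1 library share that library, so these ratios describe 2 embryos or pools and were not tested.

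**Figure D4:**
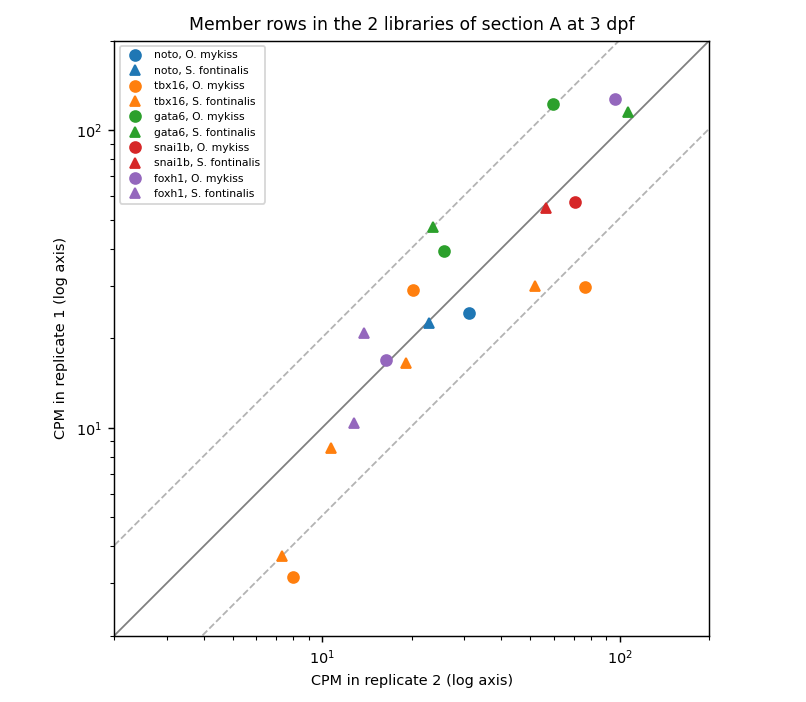
CPM of each copy in replicate 1 (y axis) against replicate 2 (x axis) of section A at 3 dpf, both on log axes, with O. mykiss copies as circles and S. fontinalis copies as triangles. The solid line marks equal levels and the dashed lines the 5th and 95th percentile ratios over all entries (0.506 and 2.01). The gata6 copies lie on or above the solid line and most tbx16 copies below it.

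Genes around the 5 members were read from lists ordered by role, in O. mykiss entries of section A, 3 dpf against 1 dpf. In S. fontinalis all 41 of 41 list entries rose, near the 88.9% of all its entries. Of 54 O. mykiss entries 14 rose and 11 fell, where 11.7% of all O. mykiss entries rose and 23.2% fell. With DESeq2's kind of size factors (RLE factors) in edgeR 16 rose and 5 fell, and with library totals 13 rose and 15 fell. Over all entries of both species 11344 rose and 5286 fell with TMM factors. With RLE factors these were 12560 and 2987, and with library totals 10728 and 6922. Falls thus depend on the scaling more than rises do over all entries, and not in this list alone. DESeq2's own test called 15 higher and 7 lower. Many list symbols matched no entry, among them 12 of the 13 mesoderm and notochord factors, which does not show that their RNA was absent. The limit of 31 counts in some library holds for these entries as well.

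Nodal ligands upstream of Foxh1 rose. Of 4 entries of the ligand list, 3 rose and 0 fell, with a median log2 fold change of 5.65. These 3 were near 0 at 1 dpf, so given the limit on counts nothing is read from their number. ndr1 went from 0.288 ± 0.398 CPM (mean ± SD, n = 3) at 1 dpf to 11.9 ± 4.12 (n = 2) at 3 dpf, a log2 fold change of 5.27 ± 1.15 (SE, edgeR adjusted p = 0.00104). The ndr2 copies LOC110515815 and LOC110515024 rose to 6.77 ± 6.16 and 6.62 ± 4.02 CPM (adjusted p = 0.00304 and 0.00184), and the coligand gdf3, a Vg1-type factor, measured 21.7 and 20.2 CPM (adjusted p = 0.732). DESeq2 called 2 of these 3 rises, not that of ndr2 LOC110515815.

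Receptors and Smads were already present at 1 dpf, and edgeR called none higher. Of 6 receptor and coreceptor entries 0 rose and 1 fell, acvr2aa LOC110495930, a type II receptor gene (62.5 ± 4.0 to 19.3 ± 6.82 CPM, log2 fold change −1.70 ± 0.29, SE, edgeR adjusted p = 0.000143). DESeq2 also called acvr2ba LOC110531045 higher. Of 12 entries of Smads and their partners 0 rose and 8 fell, with a median of −0.60. With DESeq2's size factors in edgeR 1 rose and 3 fell, the rise being smad4a LOC101268920, so the direction of the smaller changes depends on scaling. Falls over all entries of both species also dropped with these factors, from 5286 to 2987. DESeq2's own test called 1 higher and 5 lower. The falls that held under every scaling included both copies of tgif1, a corepressor of Smads (LOC110535602, −1.44 ± 0.18, and tgif1, −1.22 ± 0.18, adjusted p = 6.28e-06 and 3.24e-05). The Nodal antagonist lft1 measured 1.14 CPM at 1 dpf and 4.44 at 3 dpf (1.95 ± 0.87, adjusted p = 0.069), and was called higher with DESeq2's size factors.

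Downstream lists moved in part. Of 3 endoderm entries 1 rose, gata5 (0.0469 to 4.59 CPM, SD 3.23 at 3 dpf, edgeR adjusted p = 0.00187), which DESeq2 did not call, while both sox17 copies did not pass. gata5 was near 0 at 1 dpf, so given the limit on counts its rise is a description. Of the Fgf and Wnt entries 2 of 3 rose, wnt11f2 (1.29 to 15.5 CPM, log2 fold change 3.57 ± 0.84, SE, edgeR adjusted p = 0.00163) and fgf8a LOC110502398 (0.0938 to 2.26 CPM, adjusted p = 0.0379), of which DESeq2 called wnt11f2 alone. Against 0 hpf 1 of the 3 was called higher in section A. With 1 count worth 0.186 and 0.21 CPM in the 3 dpf libraries, fgf8a was under 31 counts there. Its highest count thus lies in a library outside these 2 groups, so its rise from 1 dpf is not read as a first appearance. All 3 Snail and cadherin entries rose against 1 dpf, while 1 of the 3 was called higher against 0 hpf (median log2 fold change 1.32). The snai1a copies LOC110494556 and LOC110527910 rose by 3.33 ± 0.37 and 2.22 ± 0.72 (adjusted p = 1.98e-06 and 0.015), and cdh1 LOC110506405, the E-cadherin gene that Snail factors are known to repress, by 0.73 ± 0.19 (adjusted p = 0.004). msgn1, the 1 mesoderm factor that matched, measured 1.81 and 0.884 CPM (adjusted p = 0.373).

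Among the genome activators, the factors that open the zygotic genome in zebrafish, 5 of 21 entries rose and 2 fell. nanog LOC110535236 rose from 12.6 ± 7.34 to 666 ± 511 CPM (log2 fold change 5.72 ± 0.65, SE, edgeR adjusted p = 2.6e-06), while the copy named nanog measured 234 and 254 CPM (adjusted p = 0.742). eomesb, a T-box gene, rose by 3.47 ± 0.54 (adjusted p = 5.97e-05) and pou5f3 by 0.41 ± 0.16 (adjusted p = 0.0399), a call lost with library totals. sox3 LOC110504954 fell by 1.36 on the log2 scale (SE 0.26, adjusted p = 0.000374), and ep300a LOC110498762 by 0.63 (SE 0.21, adjusted p = 0.0162), a call lost with DESeq2's size factors. nanog thus had, like foxh1, a copy that rose from a low level beside a copy that was abundant before 3 dpf.

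**Figure D5:**
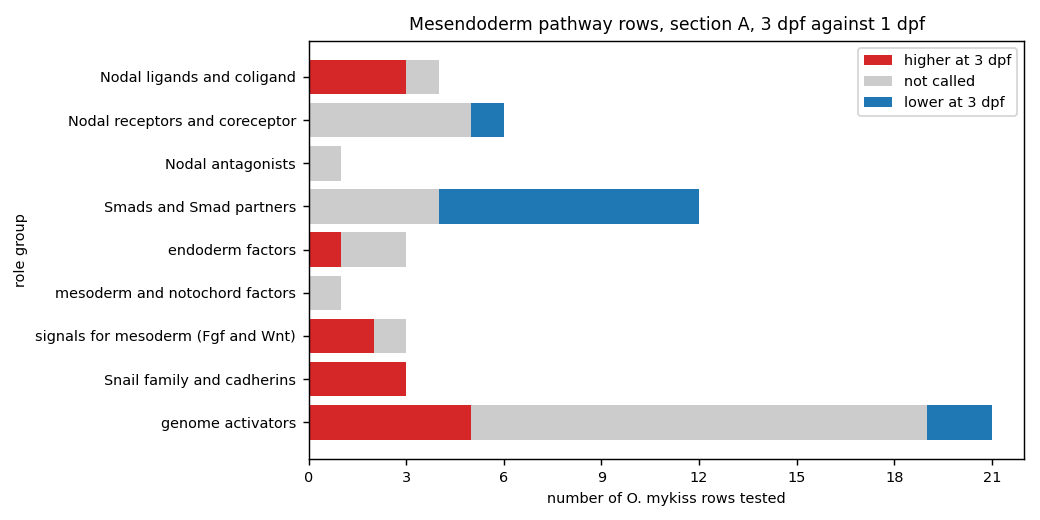
Number of O. mykiss entries (x axis) of each role list (y axis) that rose, fell or were not called in section A between 1 dpf and 3 dpf by edgeR at an adjusted p under 0.05. Rises are 3 of 4 for ligands, 2 of 3 for Fgf and Wnt signals and 3 of 3 for Snail and cadherin entries, where 11.7% of all O. mykiss entries rose. Given the limit of 31 counts, nothing is read from the number of ligand rises. Falls are 8 of 12 for Smads and their partners, where 23.2% of all O. mykiss entries fell. With DESeq2's size factors in edgeR 3 of the 12 fell, and falls over all entries of both species dropped from 5286 to 2987.

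The entries most like each member over the 20 libraries were sought by Pearson r of log2(CPM + 1) among 21004 entries with a symbol. For noto of O. mykiss they were the S. fontinalis entries of brpf1, mex3a and mtmr1a (r = 1.00), and 1930 entries had an r above 0.99. For O. mykiss tbx16 they were S. fontinalis mcm6, wdr24 and sesn3 (r = 0.988, 0.985 and 0.984), with 0 entries above 0.99. For gata6 LOC110530508 they were S. fontinalis myclb, kdm4c and cyth1a (r = 0.992, 0.991 and 0.991), with 4 above 0.99. The 18 copies that rose had an r with each other from 0.832 to 1.00, with a median of 0.987. These values rest on 2 libraries that stand high and 18 at or near 0, which every such entry shares.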

How the data were processed

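Members and role lists were chosen with earlier results of these data known. The deposited table holds raw counts per gene and library, and entries with a largest count under 31 are not in it. Per the submitters' processing notes the authors used DESeq2, HTSeq 2.0.4, STAR 2.7.11 and fastp 0.23.4. Per the labels, ribosomal RNA was depleted and libraries were directional. The genome builds, the strand setting and the treatment of reads matching several places, as duplicated copies and both parental genomes can, are not given in the sources used here, so values of near-identical copies are uncertain. The deposited normalized tables are 1 factor per library times the counts and were not used.

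From the counts, edgeR 4.0.16 (R 4.3.3) fitted all 20 libraries in 1 model, in which each section at each stage has its own mean, after TMM scaling and the tool's own filter on low counts. It tested 9 contrasts by quasi-likelihood, and calls have a Benjamini-Hochberg adjusted p under 0.05. The spread behind each p-value comes from all stages and is that between these samples. The fit was tested on simulated data. DESeq2 1.42.0, other scalings, no filter, fewer groups, left-out libraries and a replicate block were alternatives, and DESeq2's likelihood ratio test was added after seeing the data. Role list entries named are up to 3 that rose with the highest mean at 3 dpf and up to 2 that fell furthest, per list, and the 3 entries most like each member; others named were chosen after their values were seen. Where a group had at most 3 counts, ratios carry a counting interval.

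Sections with the same stage and replicate number come from the same sample, per the labels' design. Deviations from the group means of A and B sections with the same number correlated at −0.0734 at 0 hpf, 0.469 to 0.726 at 1 hpf, 0.393 to 0.663 at 1 dpf and 0.472 at 3 dpf. The value at 0 hpf does not show a pairing at that stage. The main tests between sections did not use the pairing, and the replicate block did. With the block, foxh1 LOC110535310 at 0 hpf had a log2 fold change of 1.01 ± 0.19 (SE, edgeR adjusted p = 0.000709). Across stages the numbers pair nothing.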

Additional observations from a re-analysis of the deposited data

Results flagged for a closer look

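For 2 copies a test of the change of the section difference between 1 dpf and 3 dpf passed. Both copies reached the limit of 31 counts only in section A of 3 dpf, so these calls are a description. S. fontinalis foxh1 was also at 0 counts in section A at 1 dpf. S. fontinalis foxh1 had an adjusted p of 0.00975 and O. mykiss tbx16 an adjusted p of 0.0201 in edgeR's interaction test, adjusted over all 32502 entries. DESeq2 called 6 copies for this change, with S. fontinalis foxh1 among them and O. mykiss tbx16 not, and its share over all entries is not given here. Both values rest on few counts in section B, where S. fontinalis foxh1 had 0, 5 and 0 counts at 1 dpf and 0 and 2 at 3 dpf, and O. mykiss tbx16 had 8, 0 and 0 and then 0 and 2. The part of these counts in the result was seen by leaving libraries out: the adjusted p of S. fontinalis foxh1 was 1.00 without the library with 5 counts, and that of tbx16 was 1.00 without the library with 8.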

How the results depend on the processing

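No call of a copy changed direction under any alternative run. Under RLE factors, factors from O. mykiss entries, library totals, no filter, fewer groups and the replicate block, the counts of copies called moved by at most 1. DESeq2's Wald test called 9 of the copies in section A at 3 dpf against 1 dpf, 9 against 0 hpf, 9 between sections at 3 dpf and 6 for the change of the section difference. Its likelihood ratio test, added after seeing the data, called 8, 7 and 8 for the first 3. Of the copies that its Wald test did not call against 1 dpf, foxh1 LOC110535310 was not called by edgeR either (DESeq2 adjusted p = 0.553). The other 9, noto of both species among them, had DESeq2 dispersions of 12.9 to 20, against 0.102 to 0.367 in edgeR, and their highest adjusted p was 0.273. DESeq2 called 30.2%, 28.6% and 31.9% of all entries, both species pooled, higher in the first 3 of those comparisons. Its share for the change of the section difference is not given here.

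With 1 library left out, where a lone library of a group is assumed to vary like the other groups, the copies called ranged from 17 to 18 (3 dpf against 1 dpf in section A), 16 to 17 (against 0 hpf), 17 to 19 (sections at 3 dpf), 0 to 1 (sections at 0 hpf) and 1 to 3 (change of the section difference). The calls lost at 3 dpf were tbx16 LOC110526156, its S. fontinalis partner LOC129852778 and foxh1 LOC110490826. Shares per library ran from 17.8% to 19.1% (foxh1), 50.1% to 60.4% (gata6), 42.3% to 48.0% (noto), 44.5% to 48.9% (snai1b) and 46.1% to 48.6% (tbx16). With the tbx16 copies whose own identifier is tbx16 alone the share was 45.3%.

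With the replicate block (stage and replicate number for sections, and for stages the replicate number, which pairs nothing there) 18, 18 and 18 copies were called in the first 3 comparisons, 3 for the change of the section difference, where gata6 LOC110530508 was added, and the block changed no other call. The median of all O. mykiss entries at 3 dpf against 1 dpf in section A was −0.33 with TMM, −0.04 with RLE factors and −0.50 with library totals. Depth limits the zeros, since 1 count was worth 0.0952 to 0.21 CPM.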
